A study of Schizosaccharomyces pombe with 8 samples.

Results

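Mitochondrial ribosomal proteins build the ribosome that translates the few messages encoded by mitochondrial DNA. In fission yeast those described here are encoded in the nucleus, made in the cytosol and imported into the mitochondrial matrix. Some descend from the proteins of the bacterial ribosome, and others exist only in mitochondrial ribosomes. The large subunit joins amino acids and holds the tunnel through which the new protein leaves, and the small subunit reads the message.

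The genes described here are the 47 whose symbol begins with mrpl, mrps, mrp or rsm followed by a digit. They are 47 of the 2899 genes that had 1 symbol in the probe annotation, and each was read by 1 probe set. A further 13 symbols of the same form in the current gene table had no probe set named by this annotation and were not analysed here. Of these, mrp1 is listed as a long non-coding RNA and not as a protein-coding gene. One of the 47, rsm1, encodes an mRNA export factor rather than a ribosomal protein, which leaves 46 ribosomal protein genes. The 47 genes lie on all chromosomes, with 17 on chromosome I, 21 on chromosome II and 9 on chromosome III of assembly ASM294v3.

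The study compared wild-type Schizosaccharomyces pombe with a strain deficient in zfs1, which encodes a zinc-finger protein that binds and destabilizes mRNA. Total RNA from 4 cultures of each strain was hybridised to 8 Affymetrix arrays, 1 array a culture. Growth was at 30 °C in Edinburgh minimal medium with adenine, histidine, leucine, lysine and uracil, and the labels give no further genotype and do not say whether the deficient strain is a single clone. The labels name an array of another species, but the probe annotation pairs its probe sets with fission yeast genes.

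The zfs1 probe set separated the strains as labelled. Its log2 signal lay between 10.39 and 10.62 in wild type and between 3.51 and 4.55 in the deficient strain, where 4 of 4 arrays were at or below the brightest of the 17 reporter controls. This is a signal at least 31.8-fold lower (limma adjusted p = 5.23e-07). Array medians were alike, between 9.61 and 9.64, and all 47 probe sets were above the brightest control on every array. In RNA from whole cultures, fewer cells of a kind and less RNA per cell cannot be told apart.

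No mitochondrial ribosomal protein gene passed the test between the strains. In limma with Benjamini-Hochberg adjustment over 4969 probe sets, 0 of 47 had an adjusted p under 0.05, where 5.78% of all tested probe sets did (3.56% higher and 2.21% lower in the deficient strain), and the smallest adjusted p among the 47 was 0.238. At an unadjusted p under 0.05 there were 2, mrp7 on the higher and rsm18 on the lower side, against 20.6% of all probe sets, 10.1% higher and 10.5% lower. The log2 difference, zfs1-deficient minus wild type, ran from -0.31 for mrpl44 to 0.35 for mrp7. Its median over the 47 was -0.06, beside -0.01 over all probe sets, and it was below 0 for 30 genes and above 0 for 17, where 52.6% of all probe sets were below 0.

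The precision of the fit without the block is given by its intervals. The 95% interval of the difference reached a median of 0.29 to either side on the log2 scale, from 0.16 for the most precise gene to 0.65 for the least. For 41 of the 47 genes the whole interval lay within 1.5-fold either way, and for 47 of 47 within 2-fold. The signals of the strains overlapped for every gene except rsm18, which was lower in the deficient strain; of the probe sets with all 8 values 15.5% did not overlap, and 7.71% did not overlap and were lower.

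**Figure D1:**
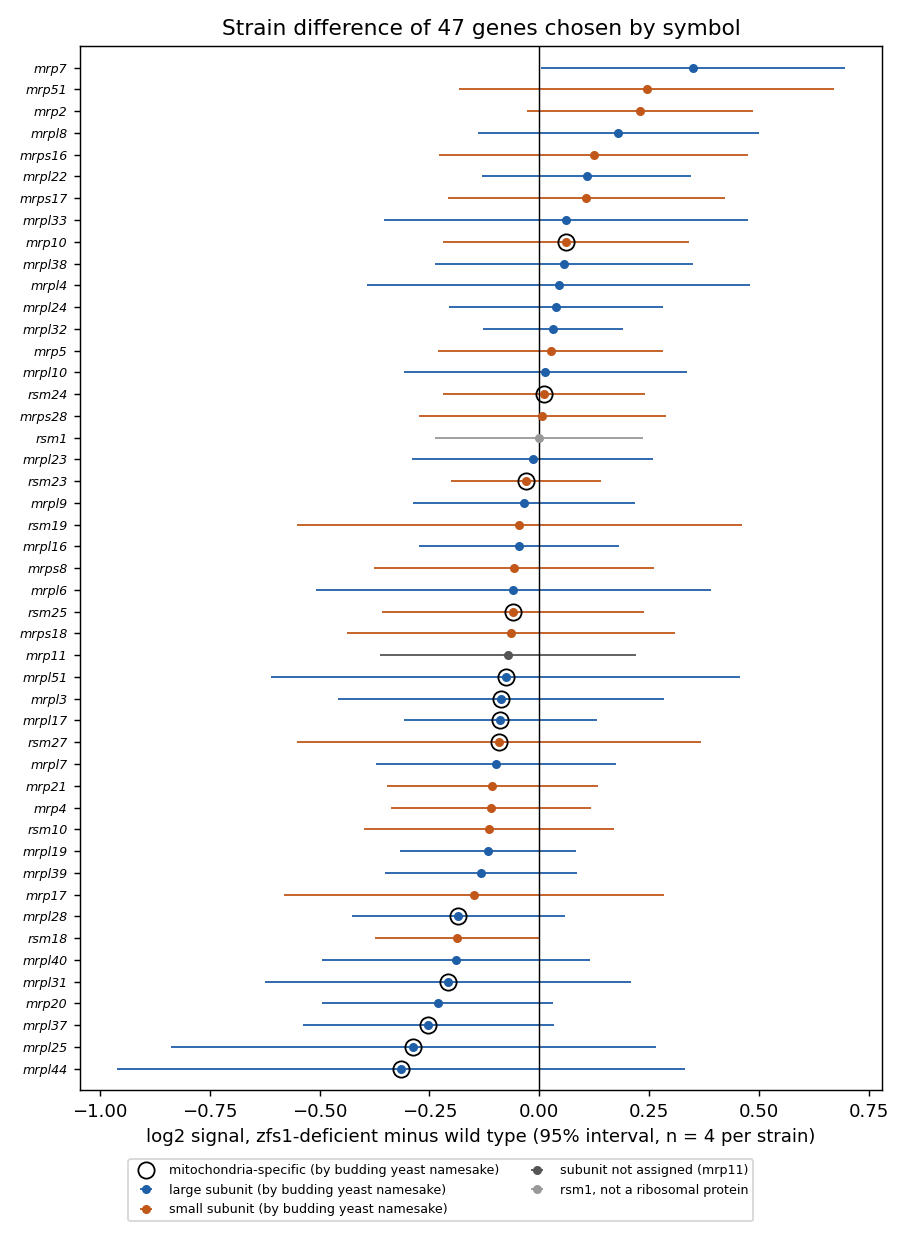
Fitted log2 difference in signal, zfs1-deficient minus wild type, for each of the 47 genes (points) with its 95% interval (lines), 4 cultures a strain. Differences run from -0.31 for mrpl44 to 0.35 for mrp7. The 8 large-subunit genes whose budding yeast namesakes are specific to mitochondria (ringed blue points) all lie below 0. This grouping was drawn up with the values known.

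Cultures that carried the same replicate number had correlated deviations, although some cultures of different number correlated as much. The fit was therefore also made with the number as a block, a choice drawn from these same data. In that limma fit 2 genes were higher in the deficient strain, mrp7 and mrp2, and 1 was lower, mrpl25. These are 3 of 47, where 24.2% of all probe sets passed the same fit, 11.3% higher and 12.8% lower. The median standard error of the 47 differences was 0.13 without the block and 0.08 with it. With number-matched cultures compared, 11 genes were lower in 4 of 4 pairs and 2 were higher in 4 of 4, against 25.1% and 20.8% of all probe sets.

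The large subunit accounts for 26 of the genes, assigned by the role of the budding yeast protein of the same name. The gene mrp7 encodes the counterpart of bacterial bL27, a protein near the site where amino acids are joined. Its log2 signal was 10.26, 10.19, 10.34 and 10.74 in wild-type cultures 1 to 4 and 10.57, 10.65, 10.61 and 11.10 in the deficient cultures. Within each number the deficient culture was higher, by 0.31, 0.46, 0.27 and 0.37, although wild-type culture 4 was above deficient cultures 1 to 3. The difference was 0.35 ± 0.15 (SE, n = 4 per strain), a ratio of 1.27, and it ranged from 0.23 to 0.47 with single cultures left out. The limma adjusted p was 0.238 without the block and 0.00535 with it. Without the number 4 cultures mrp7 was the 1 gene of the 47 to pass, with a difference of 0.35 and a limma adjusted p of 0.0194, where 12.3% of probe sets passed, 6.69% as higher. The block gave 0.0234 for it there, with 17.9% passing, 8.65% as higher.

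The opposite direction was seen for mrpl25, which encodes mL59, a large-subunit protein without a bacterial counterpart. Its log2 signal was 9.21, 9.44, 9.15 and 10.06 in wild type and 8.96, 8.99, 8.97 and 9.79 in the deficient strain. The deficient culture was the lower one at each number, by 0.25, 0.45, 0.18 and 0.27, and culture 4 was the highest of its strain in both. The difference of -0.29 ± 0.25 (SE, n = 4) had a limma adjusted p of 0.564 without the block and 0.0332 with it. It was -0.09 without wild-type culture 4 and -0.49 without deficient culture 4. Without the number 4 cultures the limma adjusted p was 0.102, and 0.0823 with the block as well.

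All 8 large-subunit genes whose budding yeast namesakes are specific to mitochondria had a difference below 0, with a median of -0.20. None of the 8 passed without the block, and mrpl25 alone passed with it. The others included mrpl44 at -0.31 ± 0.29, mrpl37 at -0.25 ± 0.13, mrpl31 at -0.21 ± 0.19 and mrpl28 at -0.18 ± 0.11 (SE, n = 4), which encode mL53, mL54, mL60 and mL40. Without wild-type culture 4 mrpl44 was at -0.05 and mrpl31 at -0.07, and without deficient culture 4 they were at -0.52 and -0.36. Nearest to 0 were mrpl17 and mrpl3, both at -0.09, and mrpl51, at -0.08. This grouping was drawn up with the values known, and it has no test. The count was 7 of 8 with array weights and without deficient culture 4, and 6 of 8 without wild-type culture 3. The 18 large-subunit genes with a bacterial counterpart split evenly, 9 below 0 and 9 above, with a median of -0.00064. Their counts below and above 0 were 13 and 5 with array weights, 11 and 7 without both number 4 cultures, and from 7 and 11 to 11 and 7 with single cultures left out.

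Among those 18 are proteins that line the exit of the tunnel. The genes mrp20 (uL23) and mrpl40 (uL24) had differences of -0.23 ± 0.12 and -0.19 ± 0.14, whereas mrpl22 (uL22) stood at 0.11 ± 0.11 and mrpl4 (uL29) at 0.04 ± 0.19 (SE, n = 4 each). None of these differences passed with or without the block. For mrpl4, wild-type culture 3 read 8.77 where the other wild-type cultures read between 9.44 and 9.69. Its difference was -0.16 without that culture and -0.02 without deficient culture 2. The gene mrpl8, for bL17, had a difference of 0.18 ± 0.14. On the lower side were mrpl39 (bL33) at -0.13 ± 0.10 and mrpl19 (uL11) at -0.12 ± 0.09, and mrpl33 (uL30) was at 0.06 ± 0.18.

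The small subunit accounts for 19 genes, 11 below 0 and 8 above, with a median of -0.05. The gene mrp2 encodes the counterpart of uS14, a protein of the head of the subunit. Its log2 signal was 10.75, 10.51, 10.63 and 10.96 in wild type and 10.93, 10.91, 10.79 and 11.15 in the deficient strain. Every pair was higher in the deficient culture, by 0.18, 0.40, 0.16 and 0.18, while the ranges of the strains overlapped. The difference was 0.23 ± 0.11 (SE, n = 4), with a limma adjusted p of 0.295 without the block and 0.0282 with it. Without the number 4 cultures the limma adjusted p was 0.0846.

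The gene rsm18, for bS18, had the only pair of ranges that did not overlap. It read 10.63, 10.49, 10.55 and 10.68 in wild type and 10.30, 10.45, 10.38 and 10.47 in the deficient strain. The lowest wild-type culture was thus just above the highest deficient one. The difference of -0.19 ± 0.08 (SE, n = 4) did not pass, with a limma adjusted p of 0.240 and, with the block, 0.0741.

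Of the small-subunit genes only rsm18 had a 95% interval, without the block, that left out 0. The interval of mrp2 and those of the other small-subunit genes included it. The gene mrp51, for bS1, had a difference of 0.24 ± 0.19, mrps16 (bS16) of 0.12 ± 0.16 and mrps17 (uS17) of 0.11 ± 0.14. Below 0 were mrp17 (bS6) at -0.15 ± 0.19, rsm10 (uS10) at -0.11 ± 0.13, mrp4 (uS2) at -0.11 ± 0.10 and mrp21 (bS21) at -0.11 ± 0.11 (SE, n = 4 each). The 5 small-subunit genes specific to mitochondria had 3 values below 0 and 2 above. The gene mrp11, for which no subunit was assigned, was at -0.07 ± 0.13. The probe annotation names it mrpl11, a symbol of the large-subunit form.

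**Figure D2:**
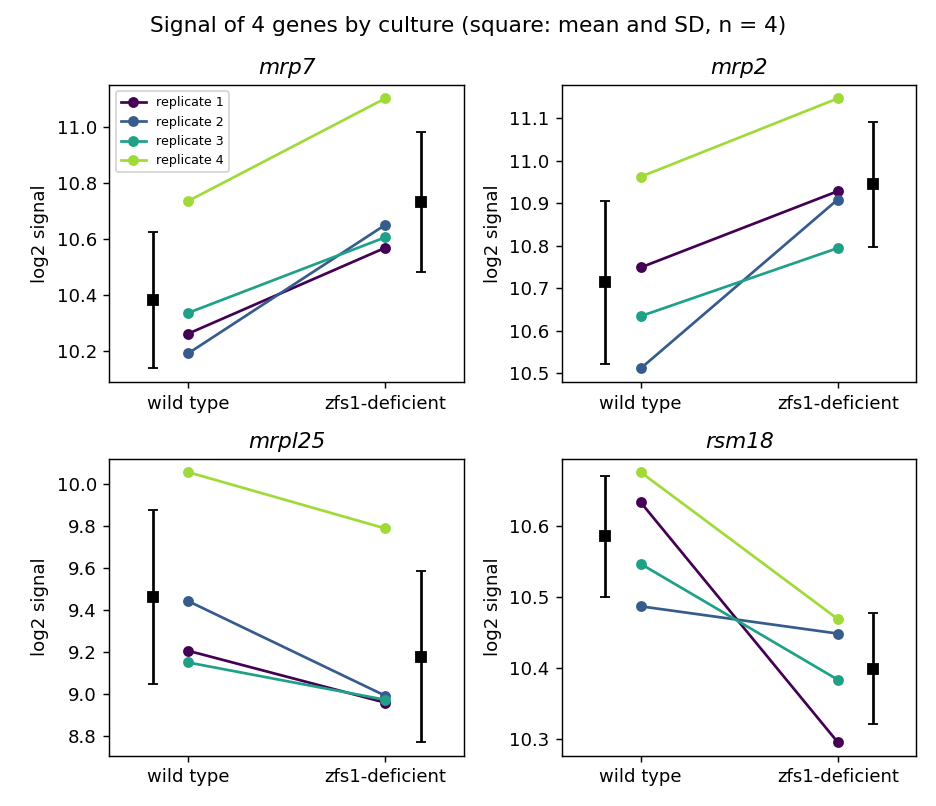
Log2 signal of mrp7, mrp2, mrpl25 and rsm18 in each culture, with lines joining cultures of the same replicate number and squares giving each strain's mean with SD (n = 4); each panel has its own axis. The lines rise in 4 of 4 pairs for mrp7 and mrp2 and descend in 4 of 4 for mrpl25 and rsm18, and replicate 4 is the highest culture of its strain in every panel.

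For most of these genes culture 4 differed from the other cultures of its strain by more than the strains differed. The shift of culture 4 from the mean of cultures 1 to 3 was averaged over the strains. It was larger in size than the strain difference for 40 of 47 genes, 85.1%, compared with 61.3% of all probe sets with 8 values. The median size of this shift was 0.27 for the 47 genes and 0.23 over all probe sets. These percentages also depend on how large the strain differences were. Culture 4 was above the mean of cultures 1 to 3 in both strains for 29 genes and below it in both for 10. It was on opposite sides for 8. Over all 4914 probe sets with 8 values these counts were 1868, 2033 and 1013. Culture 4 lay above each of cultures 1 to 3 in both strains for 22 genes, against 25.3% of all probe sets. It lay below each of them in both for 8, against 28.4%. The labels do not say what cultures of 1 number had in common.

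The direction of that shift differed from gene to gene. For mrpl44 culture 4 stood 1.07 above the other wild-type cultures and 0.80 above the other deficient ones. For rsm19 (uS19), named here after its values were seen, the shifts were 0.77 and 0.72, and for mrpl25 they were 0.79 and 0.82. In contrast mrpl51, for mL43, was lower in culture 4, with shifts of -0.84 and -0.71. Of the 19 small-subunit genes 13 were above in both strains and 1 was below, and of the 26 large-subunit genes 14 were above and 9 below. The median shift of the 47 genes was 0.13 in wild type and 0.17 under zfs1 deficiency, beside -0.01 and -0.02 over all probe sets.

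**Figure D3:**
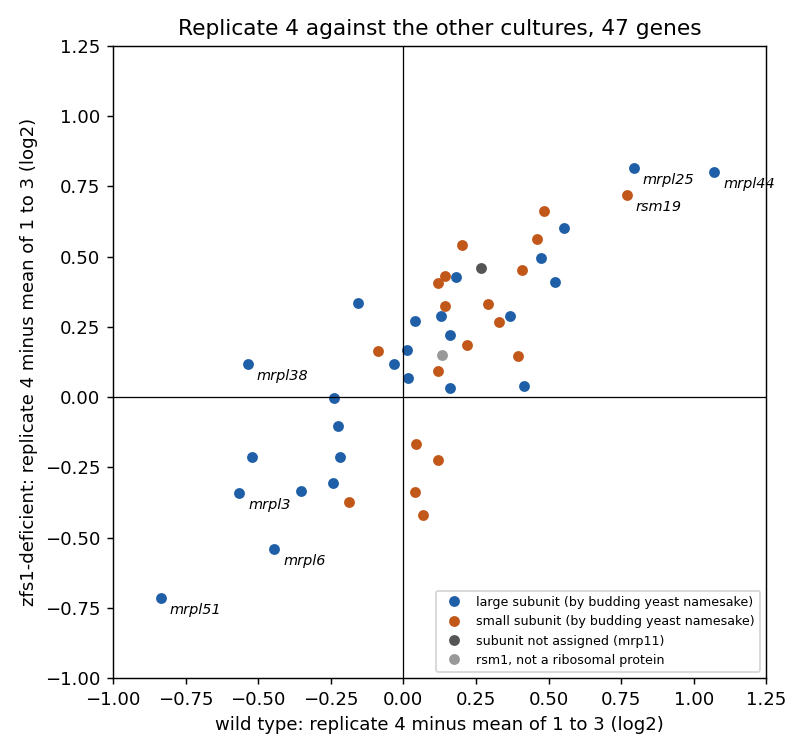
Log2 signal of culture 4 minus the mean of cultures 1 to 3 for each of the 47 genes, in wild type (horizontal axis) and in the zfs1-deficient strain (vertical axis), coloured by subunit. The shifts run the same way in both strains for 39 genes, 83.0%, against 79.4% of all probe sets with 8 values. They reach from mrpl51 at the lower left to mrpl44 at the upper right.

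**Figure D4:**
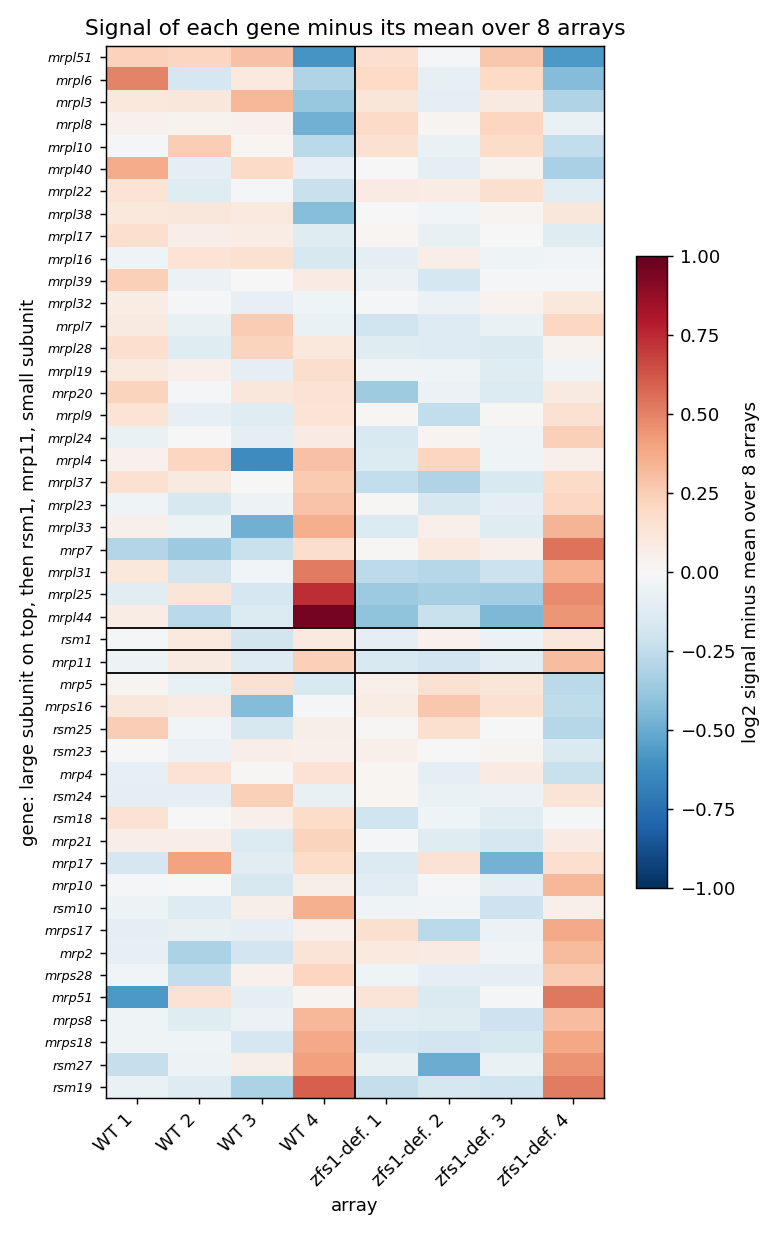
Log2 signal of each gene minus its own mean over the 8 arrays, with large-subunit genes on top, then rsm1, mrp11 and the small subunit, each subunit ordered by the shift of culture 4. The columns of culture 4 hold many of the strongest colours in both strains, red for mrpl44, mrpl25 and rsm19 and blue for mrpl51.

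The members closest to each other on a chromosome were mrp4 and mrp10, mrpl28 and mrpl40, and rsm19 and mrp11, each pair with 2 protein-coding genes between its members in the gene table of assembly ASM294v3. In these pairs the differences were -0.11 and 0.06, -0.18 and -0.19, and -0.05 and -0.07, and none passed the test.

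A further 7 gene lists were read from the same fit, and none of the genes kept in them passed without the block. Mitochondrial ribosomal proteins under other names were measured for 4 genes, with a median difference of -0.20. Of these nam9, for uS4, read 10.53, 10.52, 10.68 and 10.41 in wild type and 10.40, 10.26, 10.41 and 10.20 in the deficient strain. Its difference was -0.22 ± 0.09 (SE, n = 4), with a limma adjusted p of 0.221 without the block and 0.0321 with it. The other 3 were rml2 (uL2) at -0.22, img1 (bL19) at -0.17 and bot1, a small-subunit protein, at 0.08. The genes named from these lists below were chosen after their values were seen, because they passed with the block.

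Among 4 mitochondrial translation factors the lowest was rrf1, which encodes the factor that recycles ribosomes after termination. It read 8.92, 8.74, 8.85 and 9.17 in wild type and 8.20, 8.10, 7.998 and 8.996 in the deficient strain. Deficient cultures 1 to 3 were below every wild-type culture, and deficient culture 4 was not. The difference was -0.59 ± 0.21 (SE, n = 4), with a limma adjusted p of 0.153 without the block and 0.0112 with it. Of 4 aminoacyl-tRNA synthetases, msw1, which charges the mitochondrial tryptophan tRNA, was at -0.33 ± 0.10, with limma adjusted p values of 0.0904 and 0.0279. The genes nam9, rrf1 and msw1 were each the 1 gene of 4 in its list that passed with the block, as lower. Over all probe sets 24.2% passed that fit, 12.8% as lower. A list of 4 genes is too short to set 1 call apart from these shares.

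Of 19 mitochondrial RNA and ribosome assembly factors, 2 were higher in the limma fit with the block and none lower, which is 10.5%, against 11.3% of all probe sets called higher there. These were cbp6 at 0.47 ± 0.15 (adjusted p = 0.119, and 0.0196 with the block) and cbp3 at 0.24 ± 0.10 (0.202 and 0.0335), whose budding yeast namesakes act together in making cytochrome b. Of 21 genes of mitochondrial protein import, 3 were lower with the block (14.3%, against 12.8% of all probe sets), tim23 at -0.20, tom6 at -0.42 and tim10 at -0.26. The 42 genes of the respiratory chain and ATP synthase had a median of 0.08, with 19.0% below 0, and 4 were higher with the block (9.52%, against 11.3%), sdh3 at 0.17, cyc1 at 0.18, atp17 at 0.15 and atp1 at 0.29. The 119 cytosolic ribosomal protein genes, many of them near-identical pairs whose probe sets may share signal, had a median of 0.05, with 9.24% below 0, and 3 of them were higher with the block (2.52%). The median SD of the mitochondrial ribosomal proteins was 0.19 (wild type) and 0.18 (deficient), the same to 2 decimals as over all probe sets, and that of the cytosolic ones was 0.07 and 0.04.

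**Figure D5:**
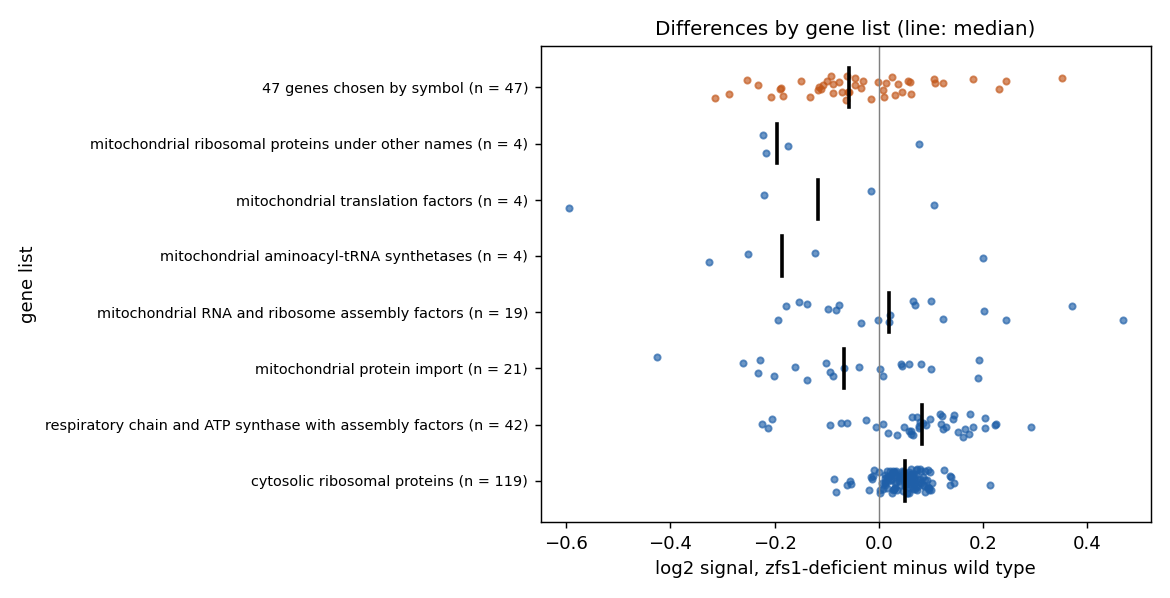
Fitted log2 difference, zfs1-deficient minus wild type, of each gene (points) in the 47 genes chosen by symbol and in 7 other lists, with the median of each list as a line. Medians run from -0.20 for mitochondrial ribosomal proteins under other names to 0.08 for the respiratory chain and ATP synthase.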

How the data were processed

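The authors deposited 1 normalised value per probe set and array, on a log10 scale that was inferred from the values, and the software and normalisation that made them are not given in the sources used here. These were multiplied to the log2 scale. Probe sets with at least 2 values in each strain were fitted with limma 3.58.1 in R 4.3.3 (lmFit, eBayes with a variance trend, 2-sided, Benjamini-Hochberg over 4969 probe sets, 17 reporter controls left out). The fit without the block was tested on simulated data with independent cultures and larger differences than those of these genes. That test does not bear on the block or on differences as small as these. Same-numbered cultures had correlated deviations from their strain means (0.37, 0.33, 0.26 and 0.70 for numbers 1 to 4), which was taken as pairing. Some cultures of different number correlated as much (0.41 for wild type 1 with deficient 3, and 0.25 for wild type 3 with deficient 1). The pairing comes from the data, since the labels do not say what a number marks. Gene symbols came from the platform annotation, updated through the gene table. The genes, lists and tests were chosen with earlier results of these data known. Subunit classes were written after the values were seen, and 5 entries that name other genes (mst1, aca1, pam1, tim11 and tim18) were then taken out of the lists. One of them, mst1, had passed the test (difference -0.55, limma adjusted p = 0.0347); in fission yeast it encodes a histone acetyltransferase and not an aminoacyl-tRNA synthetase. Genes were named if called, among the 8 highest or 8 lowest differences, the 8 next by blocked p or the 4 largest SDs. Sequences were not analysed here. The number of arrays limits the precision. Figures were drawn with matplotlib.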

Additional observations from a re-analysis of the deposited data

Results flagged for a closer look

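In 15 of 94 sets of 4 cultures (47 genes in each strain), 1 culture stood apart from the other cultures of its strain by Dixon's test at the 95% level, which chance gives in about 5% of sets. Of these 15, 13 were culture 4. In the deficient strain culture 4 was the high one for mrpl25 (log2 signal 9.79), mrpl31 (10.29), mrpl28 (9.14), mrp11 (11.05), mrps18 (10.05), rsm19 (10.70), mrps28 (10.25) and mrp7 (11.10). In wild type culture 4 was the high one for mrps8 (10.68) and mrps17 (9.38), and the low one for mrpl51 (8.69), mrpl38 (9.85) and mrpl8 (8.83). The other flags were deficient culture 3 for mrpl19 (9.93, low) and wild-type culture 3 for rsm24 (10.55, high). The genes share these arrays, so the flags are not independent of each other. The share of such flags over all probe sets is not given here. Culture 4 lay above each of cultures 1 to 3 in both strains for 25.3% of all probe sets, and below each for 28.4%. Among the 47 genes it lay above in this way for 22 and below for 8. That measure differs from Dixon's test, so it cannot show whether the flags were particular to these genes.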

How the results depend on the processing

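Alternatives were tried for the replicate block, scaling, a filter on dim probe sets, an offset, the variance trend, array weights and the left-out cultures; of these, leaving out both number 4 cultures with the block was chosen after seeing the data. The count of genes called was 0 higher and 0 lower under median centring, quantile normalisation, the filter, the offset and no variance trend, and 0 and 0 for each culture left out in turn. With the replicate number as a block it was 2 higher and 1 lower. With array weights it was 1 higher (mrp7) and 4 lower (mrpl37, mrp20, rsm18 and mrpl28). Of all probe sets 25.7% passed that fit, 13.0% higher and 12.6% lower. The weights were 5.18, 0.70, 5.42 and 0.20 for deficient cultures 1 to 4, and between 0.26 and 1.83 in wild type. The weighted deficient mean therefore rests mostly on cultures 1 and 3. Without both number 4 cultures the count was 1 higher and 0 lower, also with the block, where 17.9% passed. The median difference stayed between -0.08 and -0.02 with single cultures left out. With array weights the sign turned for 10 of the 47 genes, and among the 26 genes chosen for naming for mrpl33 (-0.040), mrp4 (0.038) and mrpl51 (0.0075). With single cultures left out the difference took both signs for 23 of the 47, and among those 26 for mrpl33 (-0.088 to 0.19), mrps16 (-2.77e-05 to 0.23), mrpl4 (-0.16 to 0.15), mrpl51 (-0.29 to 0.10) and mrps17 (-0.0011 to 0.21). The cause was not tested. The share of all probe sets that turned sign is not given here, so these counts have no background to be read against. The mean over a gene's probe sets gave the same values, since each gene had 1. The number of cultures, 4 a strain, limits the size of difference that could be called.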
